A study of Mus musculus with 15 samples.

Results

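The A and E2 clonal populations of 4T1, a mouse mammary carcinoma cell line, were compared over their 6 RNA-sequencing libraries, 3 biological replicates of each, out of 15 libraries of 5 populations. Every gene was followed, A relative to E2. Both populations were grown from single cells of the parental 4T1 line after transfection with pNLS-iRFP670, a plasmid for a near-infrared fluorescent protein, and carry the genotype label "iRFP670 expressing". Both had been kept under the antibiotic G418, which was withdrawn ahead of lysis, and RNA came from cultures in RPMI-1640 medium with fetal bovine serum, about 80% confluent, at 72 h. The parental population, labelled WT, and the clones E1 and M, which had the same handling as A and E2, are used here only for the shared estimate of spread and as reference levels. Each of the populations A and E2 is 1 clone, so the replicates are cultures of the same clone. The p-values measure the spread between replicate cultures of a population, estimated over all 5 populations. That spread may be partly technical, and it is not the spread between clones. The fluorescent protein itself was not analysed here.

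Tumour cell clones of 1 line can differ in the programmes by which cells meet a shortage of nutrients or a load of unfolded protein. ATF4 is a transcription factor made when the kinases of the integrated stress response are active, and it switches on genes for amino acid uptake, amino acid synthesis and tRNA charging. SREBP2, the product of Srebf2, is released from the endoplasmic reticulum when sterols are low and switches on cholesterol synthesis and uptake. In the unfolded protein response, the sensor IRE1 splices Xbp1 mRNA, and XBP1 and ATF6 induce chaperones and folding enzymes of the endoplasmic reticulum. Osteopontin (Spp1) and dentin matrix protein 1 (Dmp1) are secreted phosphoproteins best known from bone, and osteopontin is also made by many carcinomas.

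The A libraries held 28689958 to 32712813 counts and the E2 libraries 20494390 to 30002009. The most abundant gene, whose identifier matched no symbol, took 36.8% to 39.3% of counts in A and 38.5% to 49.1% in E2, with the highest share in E2 replicate 1. The 6 most abundant genes together took 61.9% to 69.9% of counts in the A and E2 libraries. That left 6164768 counts (E2 replicate 1) to 11454056 counts (A replicate 3) for all other genes. Values are given as CPM, counts per 1000000 counts of the library after TMM scaling, with the standard deviation (SD) over 3 libraries. The correlation of log2 CPM across genes, which are not independent replicates, averaged 0.961 within A, 0.960 within E2 and 0.922 between them. The summed level of 10 mammary epithelial markers was 752 to 899 CPM in A and 576 to 638 CPM in E2, so epithelial markers were expressed in both. The single markers went both ways, with 2 called higher in A and 3 lower by edgeR. For example, the mean of Krt8 was 202 CPM in A and 112 CPM in E2, and that of Cdh1 22.4 and 51.8 CPM. Of 12 leukocyte and 9 endothelial markers, 7 and 5 were at 0 in all 6 libraries, and neither list summed to more than 0.631 CPM in a library. Of 9 fibroblast markers, 5 (Pdgfrb, Col3a1, Dcn, Lum and Thy1) were at 0, and the summed 21.2 to 33.8 CPM in A against 4.22 to 9.69 CPM in E2 came almost wholly from Pdgfra. Of 8 basal or myoepithelial markers, Krt5 and Krt17 were at 0 in all 6 libraries. The summed level was 0.261 to 0.553 CPM in A and 2.90 to 6.82 CPM in E2. Only in E2 did it come mostly from the basal keratin Krt14. Trp63, another of these markers, had a mean of 0.186 CPM in A and 0 CPM in E2. Krt14 measured 0.107 ± 0.136 CPM in A and 4.28 ± 1.84 CPM in E2 and was called lower in A by edgeR (log2 fold change -4.62, SE 0.74, adjusted p = 6.73e-05). The part of these markers in the results was not tested.

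A gene was called when the Benjamini-Hochberg adjusted p of edgeR's quasi-likelihood test, over all 12712 genes tested, was under 0.05. By that rule 2849 genes (22.4%) differed, 1455 (11.4%) higher in A and 1394 (11.0%) lower. At least 2-fold changes were called for 1146 genes (9.02%), 663 genes higher in A (5.22%) and 483 lower (3.80%), and at least 4-fold changes for 239 and 115. The 3 A libraries did not overlap the 3 E2 libraries for 38.9% of the genes tested. Most genes named below were picked by a naming rule that requires a call and no such overlap. Both were thus fixed in advance for those genes. Exceptions are fixed key genes and genes chosen after their values were seen. The median log2 fold change over all genes was -0.0037, with quartiles of -0.38 and 0.43, after a scaling that itself centres most genes near 0. Standard errors (SE) of log2 fold changes come from the spread of log2 CPM in both populations, and the fold changes of genes near 0 counts depend on the prior count of 2 used in the fit. In the plot of fold change against level, Spp1 combined a high level with a high fold change.

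**Figure D1:**
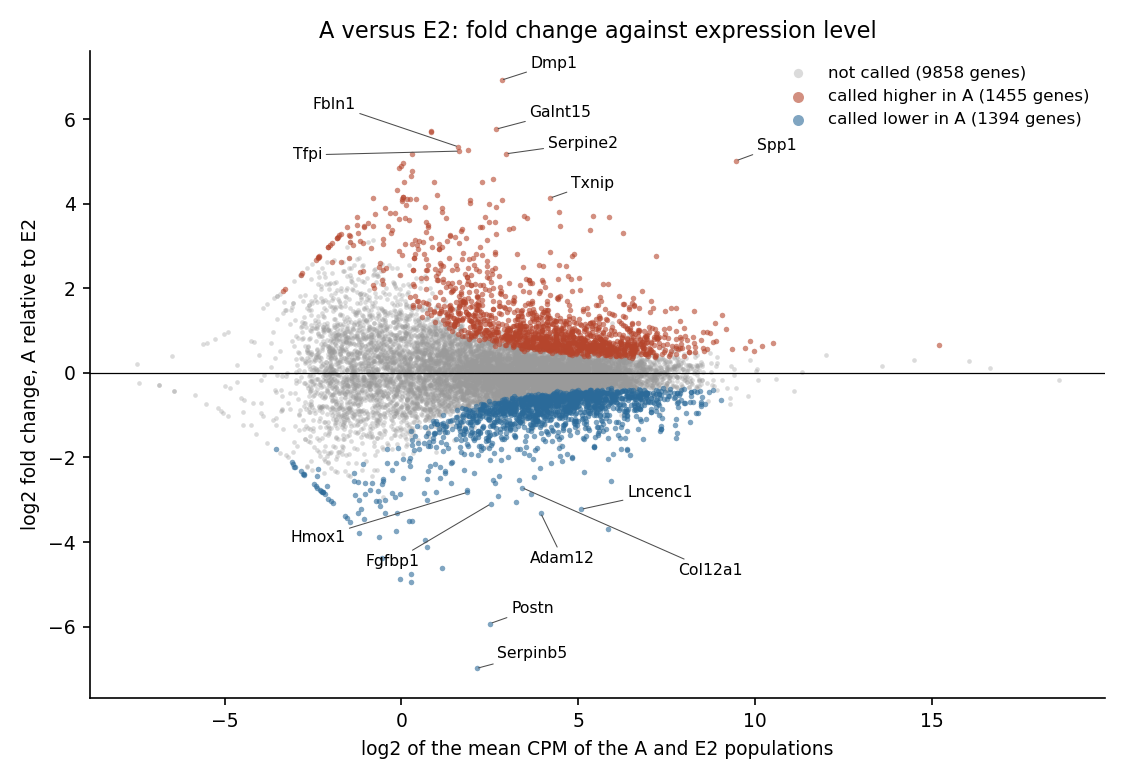
Log2 fold change of each tested gene (A relative to E2, vertical axis) against the log2 of the mean CPM of both populations (horizontal axis). Red points are the 1455 genes called higher in A, blue points the 1394 called lower and grey points those not called. Spp1 stands alone at high level and high fold, 5 genes without a count in these 6 libraries are not drawn, and the straight left edges are genes with no counts in 1 population.

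The secreted phosphoproteins of bone matrix were the most prominent difference in favour of A. Spp1 (identifier 20750, chromosome 5, 104435111 to 104441053, GRCm38) measured 1240.0, 1489 and 1390.3 CPM in the A libraries and 25.1, 47.4 and 54.1 CPM in the E2 libraries, a 32.5-fold higher mean in A. Its log2 fold change was 5.02 (SE 0.35, adjusted p = 3.09e-11). Every A library was far above every E2 library, and the other populations lay at 116 CPM in the parental population, 36.6 CPM in E1 and 108 CPM in M, so A had the highest mean of the 5 populations. In bulk libraries a larger share of cells with the transcript and more of it in each cell cannot be told apart. Dmp1, its neighbour in the same gene cluster (identifier 13406, chromosome 5, 104197575 to 104214102), measured 10.4, 13.1 and 19.002 CPM in the A libraries and 0, 0.0698 and 0.0608 CPM in the E2 libraries, with a log2 fold change of 6.92 (SE 0.41, adjusted p = 2.7e-09). E2 had only 4 Dmp1 counts in all, so E2 was near the detection limit and the fold is imprecise. These are the only tested members of the 5 genes of the SIBLING family, small integrin-binding phosphoproteins.

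The other 10 of the 12 largest increases were in genes of several kinds. Galnt15, an enzyme that starts O-linked glycosylation (identifier 78754, chromosome 14, 32028782 to 32062204), measured 10.6, 10.5 and 16.8 CPM in the A libraries and 0, 0.175 and 0.274 CPM in the E2 libraries. Fbln1, the matrix glycoprotein fibulin-1, measured 5.12, 4.89 and 8.03 CPM in the A libraries and 0.208, 0 and 0.0608 CPM in the E2 libraries, and Csn3, the milk protein kappa-casein, 7.34, 7.57 and 6.86 CPM in the A libraries and 0, 0.314 and 0.0304 CPM in the E2 libraries. In each of these 3 genes 1 E2 library had no count. The log2 fold changes were 5.76 (SE 0.74, adjusted p = 0.00283), 5.35 (SE 0.62, adjusted p = 1.38e-05) and 5.27 (SE 0.75, adjusted p = 0.000173). Without E2 replicate 1 the value of Fbln1 was 5.94, and without E2 replicate 2 that of Csn3 was 6.39.

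Inhibitors of coagulation and of serine proteases were among these genes too. Tfpi, the inhibitor of the tissue factor pathway (identifier 21788, chromosome 2, 84432855 to 84476775), measured 7.77, 3.07 and 7.53 CPM in the A libraries and 0, 0.140 and 0.122 CPM in the E2 libraries and was 5.25 (SE 0.67, adjusted p = 8.52e-05) on the log2 scale, with A replicate 2 the lowest of the A libraries. Serpine2, protease nexin-1, which inhibits thrombin and plasminogen activators (identifier 20720, chromosome 1, 79794317 to 79858665), measured 15.8, 15.7 and 14.1 CPM in the A libraries and 0.416, 0.384 and 0.274 CPM in the E2 libraries and was 5.18 (SE 0.16, adjusted p = 3.5e-09). The parental population had 7.73 CPM of Serpine2, so here E2 was the lower and the parental level lay between. Of the other genes among the 12 largest increases, Txnip, an alpha-arrestin that restrains glucose uptake, measured 27.4, 28.4 and 49.5 CPM in the A libraries and 0.416, 2.72 and 2.43 CPM in the E2 libraries (log2 fold change 4.14, SE 0.86, adjusted p = 0.000147). Aqp1, a water channel, changed by 4.52 (SE 1.04, adjusted p = 1.2e-06), Pla2g7, a secreted phospholipase, by 4.08 (SE 0.89, adjusted p = 1.59e-07), S100a16, a calcium-binding protein, by 4.08 (SE 1.10, adjusted p = 0.00624) and Phyhd1, a dioxygenase, by 4.58 (SE 0.36, adjusted p = 2.21e-08).

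Serpinb5 and Postn were the largest differences in favour of E2. Serpinb5, the epithelial serpin maspin (identifier 20724, chromosome 1, 106861175 to 106883348), had no count in any A library and 9.06, 9.53 and 7.57 CPM in the E2 libraries. Against a floor of 3 counts over the A population, E2 was at least 271-fold higher (adjusted p = 3.5e-09). Its mean was 0.519 CPM in the parental population, 5.22 CPM in E1 and 3.42 CPM in M. Postn, the matricellular protein periostin (identifier 50706, chromosome 3, 54359267 to 54391041), measured 0.0332, 0.130 and 0.184 CPM in the A libraries and 13.6, 11.5 and 8.78 CPM in the E2 libraries, a log2 fold change of -5.93 (SE 0.43, adjusted p = 6.86e-08). The mean of Postn was 0.768 CPM in the parental population, 1.21 CPM in E1 and 0.422 CPM in M, so E2 held the highest level of the 5 populations.

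The other 10 of the 12 largest decreases were in genes of several kinds. Adam12, a membrane metalloprotease, measured 2.99, 3.59 and 1.66 CPM in the A libraries and 28.7, 26.5 and 28.7 CPM in the E2 libraries (log2 fold change -3.32, SE 0.33, adjusted p = 3.34e-06). Fgfbp1, a carrier that releases fibroblast growth factors from matrix, measured 1.53, 1.08 and 0.861 CPM in the A libraries and 7.39, 13.2 and 10.5 CPM in the E2 libraries (-3.10, SE 0.33, adjusted p = 0.000184). Both were low in every A library. Col12a1, a fibril-associated collagen, changed by -2.72 (SE 0.15, adjusted p = 3.76e-09), Ccn4, a matricellular protein of the CCN family, by -2.86 (SE 0.44, adjusted p = 1.95e-05), and Il24, a cytokine of the IL-10 family, by -2.76 (SE 0.22, adjusted p = 4.39e-06).

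Lncenc1, a long noncoding RNA known from embryonic stem cells (identifier 100039691, chromosome 13, 97434970 to 97497664), measured 6.64, 5.97 and 6.92 CPM in the A libraries and 52.7, 71.99 and 59.6 CPM in the E2 libraries (log2 fold change -3.23, SE 0.15, adjusted p = 1.18e-10). It lay at 86.1 CPM in E1, 33.2 CPM in M and 2.60 CPM in the parental population, so E1 and not E2 had the highest level. Hmox1, the heme-degrading enzyme heme oxygenase 1, measured 1.26, 0.978 and 0.307 CPM in the A libraries and 6.45, 6.39 and 6.38 CPM in the E2 libraries (-2.83, SE 0.56, adjusted p = 1.7e-06), and Gcat, a mitochondrial enzyme of threonine breakdown, 2.89, 2.05 and 1.05 CPM in the A libraries and 17.9, 18.5 and 14.5 CPM in the E2 libraries (-3.05, SE 0.43, adjusted p = 8.95e-06). The last of the 12 were Moxd1, a monooxygenase (-2.90, SE 0.52, adjusted p = 4.03e-05), and Igsf11, an adhesion molecule (-2.61, SE 0.37, adjusted p = 9.83e-06).

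**Figure D2:**
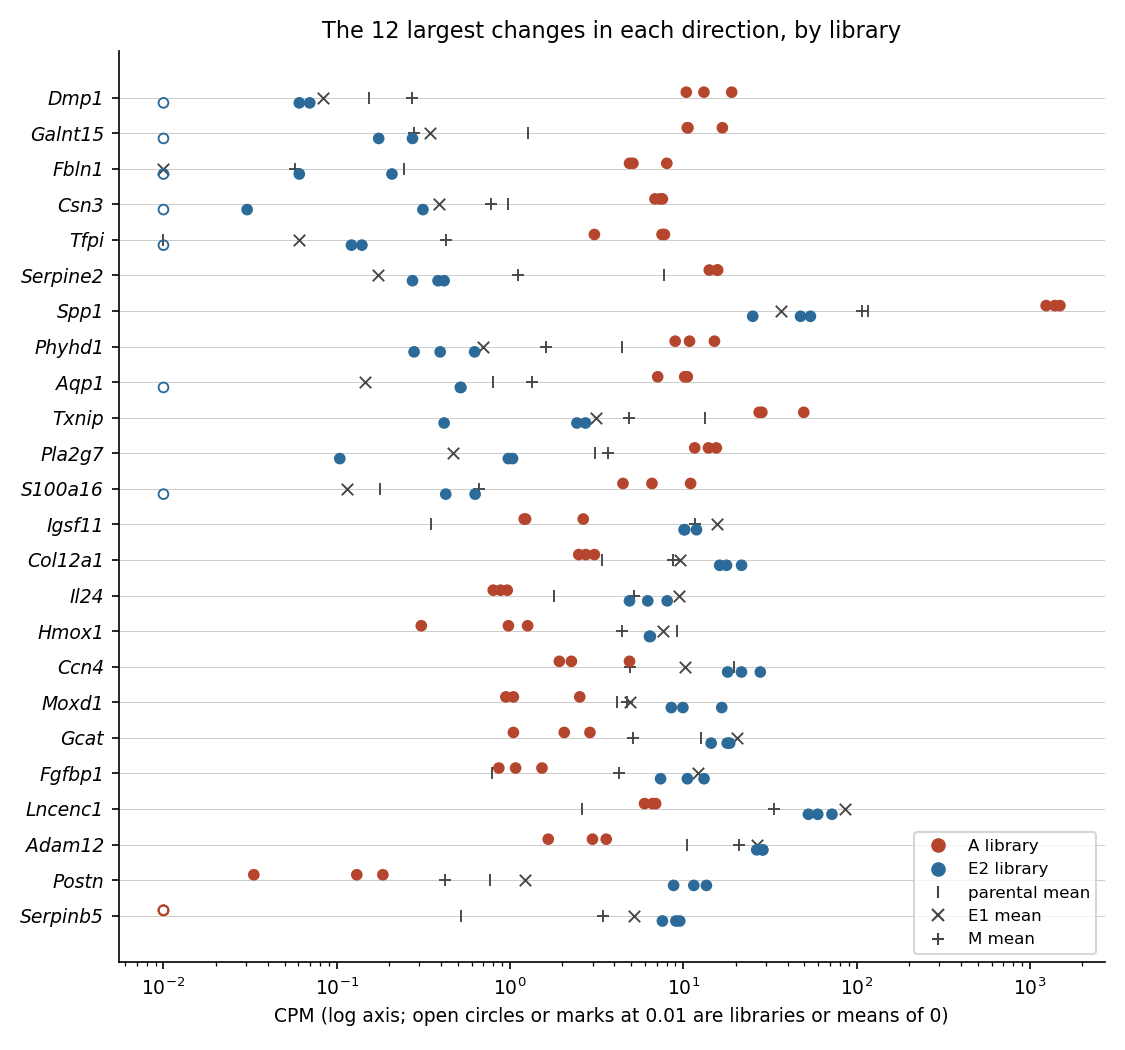
CPM (horizontal log axis) of the 12 genes with the largest increases (upper rows) and the 12 with the largest decreases (lower rows) in A relative to E2. Red and blue circles are the 3 A and 3 E2 libraries, marks are the means of the parental population, E1 and M, and open circles at the left edge are libraries at 0. The naming rule allows no gene with overlapping A and E2 libraries. The mean of Spp1 is 1373 CPM in A against 42.2 CPM in E2, and Serpinb5 is at 0 in every A library.

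Gene lists put these differences into groups. Of 34 lists, 3 had the largest shares of members called lower in A: ATF4 regulators and targets (40 of 50 tested), cholesterol genes (17 of 28) and fatty acid synthesis (11 of 23), where 11.0% of all genes were called lower. The largest shares called higher, among lists of 20 or more tested genes, were in collagens and matrix glycoproteins (15 of 29), the TGF-beta and BMP pathway (17 of 37), class I antigen presentation (10 of 22) and endoplasmic reticulum chaperones (16 of 37), where 11.4% of all genes were called higher. Some earlier results of these data were known when the lists were drawn up, so the counts describe the lists and do not test them.

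**Figure D3:**
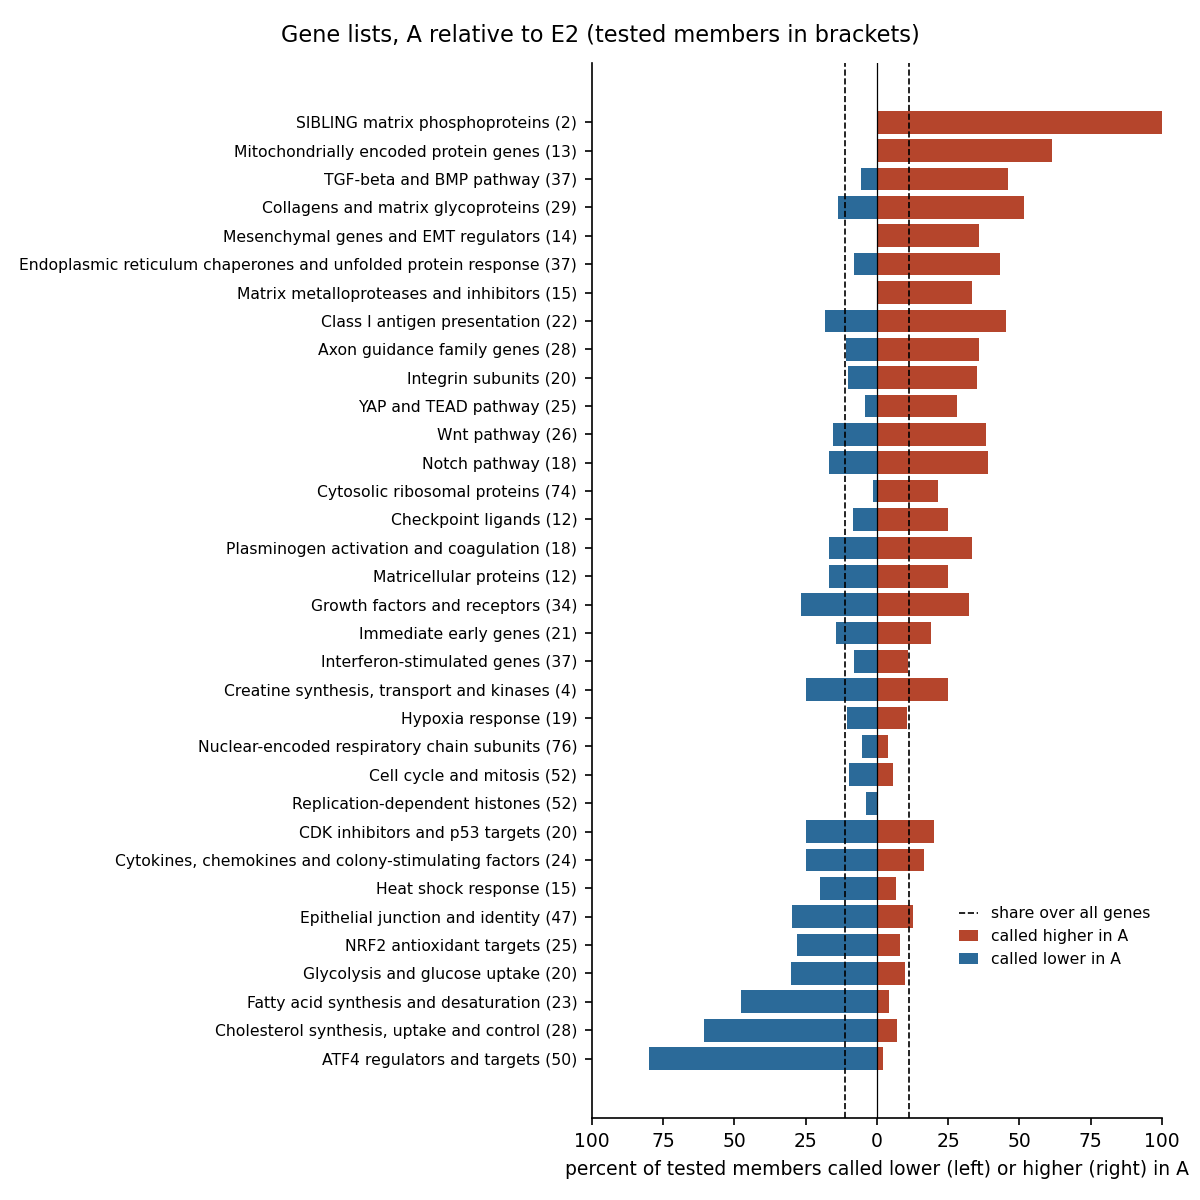
Share of the tested members of each of the 34 lists called higher in A (red, to the right) or lower in A (blue, to the left), in percent, with the number tested in brackets. Dashed lines are the same shares over all genes tested, 11.4% higher and 11.0% lower. The ATF4 list reaches furthest to the left, at 80.0%, and the list of 2 SIBLING genes furthest to the right.

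Genes of the ATF4 programme were lower in A as a group. Of 50 members tested, 40 were called lower and 1, Cth, higher, with a median log2 fold change of -0.85 against -0.0037 over all genes. The summed level was 2212 to 2254 CPM in the A libraries and 3977 to 4348 CPM in the E2 libraries, and 4083 to 4402 CPM in the parental libraries. Atf4 itself measured 49.5, 44.5 and 42.5 CPM in the A libraries and 74.99, 92.5 and 75.3 CPM in the E2 libraries (log2 fold change -0.83, SE 0.12, adjusted p = 0.000497). Its partner and target Atf3, also an immediate early gene, measured 2.23, 1.47 and 2.40 CPM in the A libraries and 14.4, 11.0 and 8.81 CPM in the E2 libraries (-2.44, SE 0.29, adjusted p = 2.12e-07). Ddit3, which encodes CHOP, changed by -0.87 (SE 0.29, adjusted p = 0.0122), and its adjusted p was 0.135 without E2 replicate 1 and 0.0641 without A replicate 3. Trib3, a pseudokinase that feeds back on ATF4, changed by -1.13 (SE 0.18, adjusted p = 8.44e-06).

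The enzymes and transporters that ATF4 serves moved in the same direction. Asns, asparagine synthetase, measured 51.4, 44.5 and 44.1 CPM in the A libraries and 135, 115 and 112 CPM in the E2 libraries (-1.37, SE 0.11, adjusted p = 2.74e-07), and Mthfd2, a mitochondrial folate enzyme, 29.5, 26.5 and 23.2 CPM in the A libraries and 102, 104 and 95.5 CPM in the E2 libraries (-1.93, SE 0.11, adjusted p = 6.93e-10). The A libraries of both genes were all below the E2 libraries, as the naming rule required of Mthfd2. E2 lay close to the parental level of 123 CPM in Asns and 84.0 CPM in Mthfd2. Chac1, which breaks down glutathione, changed by -1.60 (SE 0.21, adjusted p = 2.61e-06), Slc7a11, the cystine transporter, by -1.27 (SE 0.14, adjusted p = 3.25e-05), and Ppp1r15a, the phosphatase subunit that ends the response, by -1.61 (SE 0.47, adjusted p = 0.00014). The tRNA synthetase genes Aars, Cars, Eprs, Gars, Iars, Lars, Mars1, Nars, Tars, Wars and Yars were all called lower, between -1.43 and -0.58, and Sars (-0.29) was not called. The kinases Eif2ak3 (0.36) and Eif2ak4 (-0.15) and the related factors Atf5 (0.19) and Cebpb (0.14) were not called either. The count called higher was 0 without A replicate 1 and 2 without E2 replicate 1, and 37 to 40 were called lower when any 1 library was left out.

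The composite element that ATF4 dimers recognise, TGATGNAA, was searched on both strands in the 250 bases before each start. It was present in 10 of the 34 members called lower that had a RefSeq promoter (29.4%), in 2.41% of the 9704 tested genes with one, and in 3.45% of all 32851 promoters of that length. Over the list it was present in 12 of 41 tested members with a promoter (29.3%), called or not, so the share among members called lower was that of the whole list. The windows printed here are from the 4 called members with the element that fell most, shown so that the element can be seen in its place. Each is from RefSeq on GRCm38.p6, read 5′ to 3′ along the gene, with the element in capitals.
Fgf21 (chr7:45615582-45615669, minus strand): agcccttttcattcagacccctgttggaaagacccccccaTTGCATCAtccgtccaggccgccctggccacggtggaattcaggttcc
Atf3 (chr1:191183396-191183483, minus strand): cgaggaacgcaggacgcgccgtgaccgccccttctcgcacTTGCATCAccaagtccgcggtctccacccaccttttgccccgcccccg
Nupr1 (chr7:126625533-126625620, minus strand): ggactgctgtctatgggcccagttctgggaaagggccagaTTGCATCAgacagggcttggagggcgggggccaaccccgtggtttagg
Chac1 (chr2:119351009-119351096, plus strand): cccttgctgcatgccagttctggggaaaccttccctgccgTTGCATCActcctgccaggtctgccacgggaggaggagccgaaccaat
In all 4 the element is in the reverse orientation with the same letters, TTGCATCA, and 131, 102, 102 and 185 bases lie between it and the start. Fgf21, a hormone of the fasting response, had no count in A and 0.937, 0.349 and 0.760 CPM in E2, and its call was lost without any 1 of the A libraries. Nupr1, a stress-induced chromatin protein, measured 0.698, 0.652 and 0.615 CPM in the A libraries and 4.79, 1.05 and 3.71 CPM in the E2 libraries. A match to these letters is a description of the promoter, not a measured binding site.

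Genes of cholesterol synthesis were lower in A as well. Of 28 genes tested, 17 were called lower and 2 higher, with a median log2 fold change of -1.16. Srebf2, the gene of the controlling factor, measured 17.4, 22.8 and 14.4 CPM in the A libraries and 62.8, 39.5 and 59.6 CPM in the E2 libraries (log2 fold change -1.57, SE 0.29, adjusted p = 0.000227). Among enzymes, Cyp51 measured 10.1, 13.6 and 9.75 CPM in the A libraries and 46.6, 48.8 and 40.7 CPM in the E2 libraries (-2.02, SE 0.17, adjusted p = 5e-05) and Fdps 6.78, 16.1 and 11.3 CPM in the A libraries and 43.0, 47.7 and 46.7 CPM in the E2 libraries (-1.999, SE 0.36, adjusted p = 0.0043). In each of these genes the groups did not overlap, as the naming rule required of Cyp51 and Fdps. Lss changed by -1.99 (SE 0.28, adjusted p = 0.000108) and Idi1 by -1.90 (SE 0.24, adjusted p = 0.000173).

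Not every gene of sterol control followed. Insig1, which holds SREBP2 in the endoplasmic reticulum and is itself a target, measured 49.3, 65.2 and 53.1 CPM in the A libraries and 56.1, 65.6 and 62.1 CPM in the E2 libraries and was not called (-0.13, SE 0.14, adjusted p = 0.872). The genes called higher were Insig2 and Mylip, a ubiquitin ligase, and only 1 was called higher without A replicate 2, A replicate 3, E2 replicate 1 or E2 replicate 3. Summed over the list, the level was 379 to 495 CPM in the A libraries and 779 to 810.2 CPM in the E2 libraries. The parental libraries, at 399 to 465 CPM, lay with A.

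The sterol regulatory element TCACNCCAC was found before the start of 1 of the 11 members called lower that had a promoter in the table, Hmgcs1, an early enzyme of the pathway that makes HMG-CoA and changed by -0.62 (SE 0.15, adjusted p = 0.0116). The call of Hmgcs1 was lost without A replicate 1, A replicate 3 or E2 replicate 2. The element was present in 1.19% of tested genes and 1.05% of all promoters. Over the list it was present in 1 of 21 tested members with a promoter (4.76%), called or not. Of the 17 members called lower, only those 11 could be searched. The window of Hmgcs1 is shown for comparison with those of the other lists, with the element in capitals and 128 bases between it and the start.
Hmgcs1 (chr13:119690174-119690262, plus strand): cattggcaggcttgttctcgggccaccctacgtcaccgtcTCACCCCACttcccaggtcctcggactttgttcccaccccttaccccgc

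Fatty acid synthesis and desaturation genes behaved likewise in part. Of 23 tested, 11 were called lower and 1 higher, Acsl4 (2 were without E2 replicate 2), with a median of -0.65. Fasn, fatty acid synthase, measured 115, 109 and 90.1 CPM in the A libraries and 252, 152 and 219.8 CPM in the E2 libraries (-0.99, SE 0.24, adjusted p = 0.00437). Fads3, a fatty acid desaturase family member, measured 22.3, 22.4 and 14.7 CPM in the A libraries and 75.5, 73.6 and 52.2 CPM in the E2 libraries (-1.76, SE 0.26, adjusted p = 6.86e-08), and its neighbour Fads2 changed by -1.82 (SE 0.45, adjusted p = 0.00663). All A libraries were below all E2 libraries in these genes, as the naming rule required.

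Endoplasmic reticulum chaperones and unfolded protein response genes moved the opposite way. Of 37 tested, 16 were called higher in A and 3 lower, with a median log2 fold change of 0.51. Xbp1, the response's transcription factor gene, measured 31.3, 36.1 and 42.5 CPM in the A libraries and 11.1, 22.1 and 18.2 CPM in the E2 libraries (1.09, SE 0.32, adjusted p = 0.00033). Dnajc3, a co-chaperone that also inhibits the kinase PERK, measured 50.5, 59.9 and 59.3 CPM in the A libraries and 21.2, 23.3 and 29.6 CPM in the E2 libraries (1.19, SE 0.16, adjusted p = 2.56e-06). Manf, a secreted protein of the same organelle, measured 20.6, 21.8 and 22.7 CPM in the A libraries and 9.89, 8.31 and 10.6 CPM in the E2 libraries (1.17, SE 0.11, adjusted p = 9.99e-05) and Hspa13 84.3, 94.6 and 99.7 CPM in the A libraries and 23.2, 45.6 and 39.5 CPM in the E2 libraries (1.36, SE 0.30, adjusted p = 1.17e-05). The groups did not overlap in any of the 4, as the naming rule required of all but Xbp1.

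The members called lower included the main chaperone of the organelle. Hspa5, which encodes BiP, measured 205, 225 and 231 CPM in the A libraries and 412, 334 and 318 CPM in the E2 libraries (-0.69, SE 0.13, adjusted p = 0.000769) and 984 CPM in the parental population. Derl1, a channel protein of degradation from the endoplasmic reticulum, measured 9.60, 9.69 and 9.38 CPM in the A libraries and 29.4, 26.0 and 23.01 CPM in the E2 libraries (-1.44, SE 0.10, adjusted p = 1.91e-07) and lies on chromosome 15, where more genes were called lower (given with the chromosomes). Herpud1, a partner of that degradation complex, was the third (-0.53, SE 0.15, adjusted p = 0.0436), and its call was lost without any 1 library other than A replicate 3. The list thus held called members in both directions.

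The endoplasmic reticulum stress element, CCAAT followed by 9 bases of any kind and CCACG, was found on either strand in the promoters of 5 of the 13 members called higher that had one (38.5%). It was present in 0.165% of tested genes and 0.113% of all promoters. Its first letters are a CCAAT box, which alone was present in 41.0% of tested genes. The windows of the 4 called members with the element that rose most are printed with the element in capitals.
Dnajc3 (chr14:118937787-118937885, plus strand): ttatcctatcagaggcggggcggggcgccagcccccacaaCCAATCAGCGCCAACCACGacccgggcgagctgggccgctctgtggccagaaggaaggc
Ero1b (chr13:12565642-12565740, plus strand): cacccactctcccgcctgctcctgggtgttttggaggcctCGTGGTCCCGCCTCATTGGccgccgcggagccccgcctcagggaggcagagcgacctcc
Pdia6 (chr12:17266451-17266549, plus strand): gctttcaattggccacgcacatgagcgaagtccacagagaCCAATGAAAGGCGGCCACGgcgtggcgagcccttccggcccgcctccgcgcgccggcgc
Calr (chr8:84847035-84847133, minus strand): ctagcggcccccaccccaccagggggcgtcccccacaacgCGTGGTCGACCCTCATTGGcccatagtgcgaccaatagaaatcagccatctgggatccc
Between the element and the start lie 86, 182, 79 and 143 bases, and the element is in the reverse orientation in Ero1b and Calr. Over the list it was present in 9 of 32 tested members with a promoter, called or not.

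**Figure D4:**
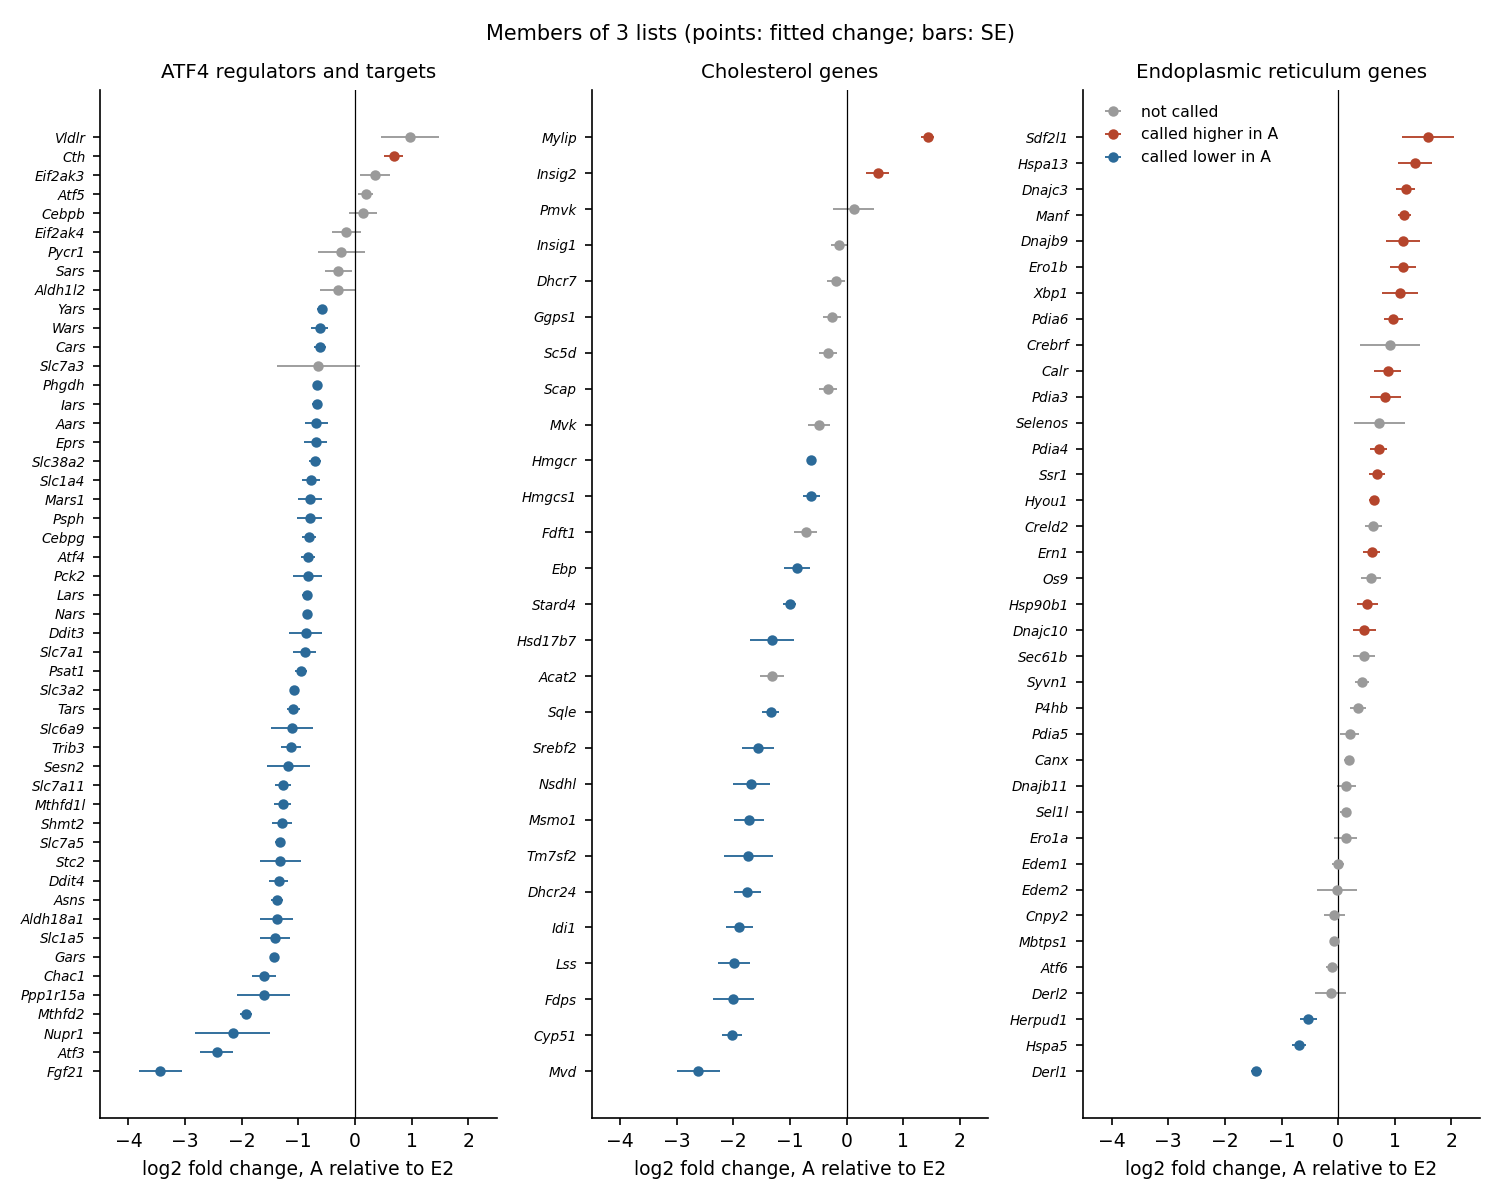
Fitted log2 fold change of the tested members (A relative to E2, horizontal axis; bars are the SE) of the ATF4 list, the cholesterol list (1 member not drawn) and the endoplasmic reticulum list. Blue members were called lower in A, red members higher and grey members not. The ATF4 and cholesterol members lie mostly left of 0 and the endoplasmic reticulum members mostly right of it, with Hspa5, Derl1 and Herpud1 as exceptions.

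The matrix genes of A and E2 differed in both directions. Of 29 collagens and matrix glycoproteins, 15 were called higher in A and 4 lower, with a median log2 fold change of 0.66. Col5a1, a fibrillar collagen chain, measured 16.9, 14.6 and 18.1 CPM in the A libraries and 3.12, 4.26 and 4.10 CPM in the E2 libraries (2.09, SE 0.17, adjusted p = 7.48e-07). Against this, Lama3 and Lamb3, chains of the laminin of epithelial basement membranes, were lower. Lama3 measured 4.45, 4.76 and 3.07 CPM in the A libraries and 31.4, 18.3 and 18.6 CPM in the E2 libraries (-2.45, SE 0.32, adjusted p = 5.26e-06) and Lamb3 9.20, 8.90 and 8.64 CPM in the A libraries and 35.3, 39.2 and 38.9 CPM in the E2 libraries (-2.08, SE 0.05, adjusted p = 2.76e-07). Of 12 matricellular genes, 3 were called higher, among them Sparc (1.82, SE 0.47, adjusted p = 0.000172), and 2 lower (4 without A replicate 3).

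Integrins, which bind these matrix proteins and osteopontin, had 7 of 20 subunits called higher and 2 lower. Itga1, a collagen receptor subunit, measured 8.01, 8.68 and 10.9 CPM in the A libraries and 0.937, 1.57 and 2.01 CPM in the E2 libraries (2.54, SE 0.33, adjusted p = 0.000702). Itga2, another collagen receptor subunit, measured 34.0, 35.4 and 40.1 CPM in the A libraries and 61.5, 64.0 and 66.8 CPM in the E2 libraries (-0.81, SE 0.08, adjusted p = 0.00405). The 2 subunits thus moved in opposite directions. Itgb2, the leukocyte integrin subunit, changed by 1.94 (SE 0.28, adjusted p = 3.88e-05) while Ptprc, the general leukocyte marker, was at 0. Itgb5 and Itgb3 encode subunits of osteopontin-binding integrins. Itgb5 changed by 1.24 (SE 0.27, adjusted p = 0.000573). Itgb3 was scarce, at 2.29, 0.261 and 0.861 CPM in A and without a count in E2, and was called higher (adjusted p = 0.00248) but not in the fit of the A and E2 libraries alone.

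In the list of matrix metalloproteases and inhibitors, the members called in the main fit were higher in A. Adam12, a metalloprotease outside the list, was called lower. Of 15 matrix metalloproteases and inhibitors, 5 were called higher and 0 lower by edgeR in the fit over all genes, with 1 lower at an unadjusted p under 0.05 and 0 called lower by DESeq2. Mmp3, stromelysin 1, measured 134, 172 and 112 CPM in the A libraries and 3.54, 19.03 and 19.1 CPM in the E2 libraries (3.30, SE 0.82, adjusted p = 0.00776), with E2 replicate 1 the lowest of the 6. Mmp14 changed by 1.17 (SE 0.12, adjusted p = 4.79e-06) and its partner Timp2 by 0.90 (SE 0.09, adjusted p = 9.99e-05). Reck, a membrane inhibitor of metalloproteases, measured 6.61, 7.66 and 11.1 CPM in the A libraries and 1.61, 0.559 and 1.37 CPM in the E2 libraries (2.79, SE 0.49, adjusted p = 3.06e-05). The fifth was Mmp10 (2.30, SE 0.58, adjusted p = 0.0302), whose call was lost without A replicate 2, A replicate 3, E2 replicate 1 or E2 replicate 3.

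Plasminogen activation and coagulation genes split, with 6 of 18 called higher and 3 lower (5 without A replicate 3). Plau, urokinase, measured 56.7, 62.4 and 71.8 CPM in the A libraries and 22.4, 37.3 and 35.04 CPM in the E2 libraries (1.01, SE 0.25, adjusted p = 0.0432). Its call was lost when any 1 library was left out, with adjusted p of 0.0658 to 0.174. F3, tissue factor, was low in both populations at 0.664 ± 0.399 CPM in A and 1.81 ± 0.897 CPM in E2 and was not called (-1.35, SE 0.60, adjusted p = 0.0808), although it was called without A replicate 3 (adjusted p = 0.0444). Tgm2, a transglutaminase that crosslinks matrix, changed by 2.13 (SE 0.21, adjusted p = 8.11e-06).

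Epithelial junction genes were lower in A more often than higher. Of 47 tested, 14 were called lower and 6 higher, with a median log2 fold change of -0.34. Esrp1, the epithelial splicing regulator, measured 23.6, 19.2 and 25.1 CPM in the A libraries and 101, 93.4 and 83.6 CPM in the E2 libraries (-2.03, SE 0.14, adjusted p = 1.77e-10), and Cdh1, E-cadherin, 21.1, 19.9 and 26.1 CPM in the A libraries and 71.1, 41.0 and 43.3 CPM in the E2 libraries (-1.21, SE 0.28, adjusted p = 7.32e-05). A lay below E2 in every library of both genes, as the naming rule required of Esrp1. In the other direction, Krt8, a keratin of simple epithelia, measured 193, 212 and 199.98 CPM in the A libraries and 103, 119 and 116 CPM in the E2 libraries (0.84, SE 0.08, adjusted p = 0.00434), the protease inhibitor Spint1 changed by 1.22 (SE 0.05, adjusted p = 5.75e-06) and the desmosomal cadherin Dsc2 by 1.36 (SE 0.38, adjusted p = 0.00133).

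Mesenchymal genes were few. Of 14 tested, 5 were called higher and 0 lower by edgeR, and the count higher was 3 without A replicate 2 or E2 replicate 3 and 2 without E2 replicate 1, with 1 called lower without A replicate 3. At an unadjusted p under 0.05, 1 was lower, and DESeq2 called 0 lower. Tcf4, a transcription factor that represses E-cadherin, measured 299.7, 309 and 356 CPM in the A libraries and 102, 116 and 113 CPM in the E2 libraries (1.54, SE 0.09, adjusted p = 5.42e-08). Pdgfra, a growth factor receptor, measured 21.0, 24.4 and 33.8 CPM in the A libraries and 3.59, 4.504 and 9.45 CPM in the E2 libraries (2.14, SE 0.46, adjusted p = 1.82e-05). It is also the only fibroblast marker above 1 CPM, and 5 of the 9 fibroblast markers were at 0. Zeb2, a repressor of epithelial genes, changed by 0.71 (SE 0.36, adjusted p = 0.0102), and its adjusted p was 0.0666 without E2 replicate 1.

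Of the signalling lists, that of the TGF-beta and BMP pathway had the largest share called higher. Of 37 tested, 17 were called higher and 2 lower (1 without A replicate 1, A replicate 2 or E2 replicate 2), with a median of 0.53. Among ligands, Tgfb1 measured 8.40, 8.81 and 11.7 CPM in the A libraries and 0.833, 1.43 and 4.62 CPM in the E2 libraries (2.004, SE 0.72, adjusted p = 0.000774) and Bmp7 7.21, 6.13 and 7.502 CPM in the A libraries and 1.93, 0.419 and 3.53 CPM in the E2 libraries (1.78, SE 0.86, adjusted p = 0.0117). E2 replicate 3 was the highest E2 library in both, and without it the values were 3.01 and 2.57. Tgfbr3, the co-receptor betaglycan, measured 7.94, 9.33 and 9.47 CPM in the A libraries and 0.416, 0.698 and 1.09 CPM in the E2 libraries (3.44, SE 0.37, adjusted p = 9.6e-08). Id2, a target of BMP signalling, changed by 1.65 (SE 0.29, adjusted p = 0.000926).

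In the Notch pathway the ligands moved apart. Jag1 measured 38.9, 30.8 and 39.6 CPM in the A libraries and 134, 132 and 124 CPM in the E2 libraries (-1.83, SE 0.12, adjusted p = 1.65e-08), and Dll4 6.31, 7.66 and 5.47 CPM in the A libraries and 0, 0.873 and 0.973 CPM in the E2 libraries (3.20, SE 1.29, adjusted p = 0.00445). E2 was higher for the first and A for the second, and Dll4 had no count in E2 replicate 1. The receptor Notch1 measured 35.04, 26.7 and 43.5 CPM in the A libraries and 21.2, 8.20 and 15.3 CPM in the E2 libraries (1.24, SE 0.45, adjusted p = 0.00212). The targets Nrarp (1.29, SE 0.19, adjusted p = 0.000161) and Hes1 (0.82, SE 0.14, adjusted p = 0.00943) were higher in A. Over the list, 7 of 18 were called higher and 3 lower.

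The Wnt list had 10 of 26 members called higher (6 without E2 replicate 2) and 4 lower (2 without A replicate 2 or E2 replicate 3). Lgr6, a receptor for R-spondins, measured 85.5, 74.3 and 77.8 CPM in the A libraries and 4.84, 5.59 and 7.38 CPM in the E2 libraries (3.71, SE 0.19, adjusted p = 3.12e-09), the largest of these changes, and its mean was 5.04 CPM in the parental population, 5.10 CPM in E1 and 11.3 CPM in M. Sfrp1, a secreted Wnt inhibitor, changed by 1.31 (SE 0.22, adjusted p = 0.000147), the receptor Fzd1 by 1.60 (SE 0.43, adjusted p = 0.00182) and the ligand Wnt7a by -1.18 (SE 0.10, adjusted p = 4.66e-06). Of 25 YAP and TEAD genes, 7 were called higher, among them the coactivator Wwtr1, or TAZ (1.05, SE 0.25, adjusted p = 6.98e-05), and its binding partner Amotl1, at 653 ± 31.2 CPM in A and 288 ± 37.6 CPM in E2 (1.18, SE 0.11, adjusted p = 1.1e-06). Crim1 (-0.58) alone was called lower. The count lower was 4 without A replicate 3, 2 without E2 replicate 1 and 0 without E2 replicate 3. The median of the YAP list was -0.05, close to that of all genes.

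Growth factors and receptors were called in both directions, 11 of 34 higher and 9 lower, with 6 higher without any 1 of the A libraries or without E2 replicate 1. The receptor Fgfr2 measured 76.3, 65.7 and 88.9 CPM in the A libraries and 24.04, 19.9 and 26.5 CPM in the E2 libraries (1.71, SE 0.17, adjusted p = 2.4e-06), and Igfbp4, which binds insulin-like growth factors, 419.7, 520.5 and 437 CPM in the A libraries and 115, 174 and 206 CPM in the E2 libraries (1.47, SE 0.27, adjusted p = 2.76e-07). Igfbp7 changed by -1.45 (SE 0.48, adjusted p = 0.00454). Among 28 axon guidance genes, 10 were called higher and 3 lower (1 without E2 replicate 3). Sema7a, a membrane-anchored semaphorin that binds integrins, measured 41.3, 37.6 and 44.5 CPM in the A libraries and 3.43, 2.51 and 4.95 CPM in the E2 libraries (3.47, SE 0.29, adjusted p = 5.12e-10), and Sema6d 19.7, 19.2 and 22.9 CPM in the A libraries and 0.520, 1.36 and 2.52 CPM in the E2 libraries (3.70, SE 0.63, adjusted p = 0.000162, and 4.32 without E2 replicate 3). Slit2, a ligand of Robo receptors, changed by 1.59 (SE 0.41, adjusted p = 0.000656) and the semaphorin receptor Plxnd1 by 1.51 (SE 0.28, adjusted p = 0.000295).

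Class I antigen presentation genes were higher in A more often than lower, 10 of 22 against 4, with a median log2 fold change of 0.85. Only 1 was called lower without A replicate 1, and 2 without E2 replicate 2. H2-D1, a class I heavy chain, measured 69.7, 73.2 and 89.3 CPM in the A libraries and 36.5, 30.3 and 29.3 CPM in the E2 libraries (1.27, SE 0.15, adjusted p = 2.5e-06), and Nlrc5, the activator of class I genes, 27.7, 18.5 and 25.6 CPM in the A libraries and 13.9996, 10.3 and 10.03 CPM in the E2 libraries (1.06, SE 0.23, adjusted p = 0.000326). The H2 genes are near-identical copies and reads may be divided between them. Tap1, a peptide transporter subunit, changed by 1.54 (SE 0.18, adjusted p = 0.00396) and Psmb10, an immunoproteasome subunit, by -1.15 (SE 0.25, adjusted p = 0.00489). Interferon-stimulated genes did not stand apart, with 4 of 37 called higher and 3 lower, a share near that of all genes. That count higher was 1 without A replicate 1, A replicate 3 or E2 replicate 1 and 2 without E2 replicate 2 or 3.

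Secreted immune mediators differed in both directions. Of 24 cytokines and chemokines, 4 were called higher and 6 lower. Tslp, an epithelial cytokine, measured 20.1, 18.3 and 22.7 CPM in the A libraries and 4.11, 4.61 and 4.98 CPM in the E2 libraries (2.14, SE 0.12, adjusted p = 1.47e-06), and Cx3cl1, the chemokine fractalkine, 12.4, 10.1 and 7.78 CPM in the A libraries and 1.82, 2.20 and 1.40 CPM in the E2 libraries (2.44, SE 0.26, adjusted p = 0.00265). Lower were Cxcl16, at 5.71, 8.77 and 6.15 CPM in the A libraries and 28.9, 32.0 and 30.8 CPM in the E2 libraries (-2.14, SE 0.19, adjusted p = 3.5e-09), and Il23a, a subunit of interleukin 23 (-1.49, SE 0.27, adjusted p = 4.73e-05). Among 12 checkpoint ligands, 3 were called higher: Nt5e, which makes adenosine, measured 112, 120.0 and 123 CPM in the A libraries and 31.0, 40.1 and 42.6 CPM in the E2 libraries (1.64, SE 0.15, adjusted p = 1.14e-08), Cd47, the signal against phagocytosis, 148, 149.6 and 147 CPM in the A libraries and 70.5, 83.2 and 95.2 CPM in the E2 libraries (0.83, SE 0.13, adjusted p = 9.99e-05), and Nectin2 changed by 1.0005 (SE 0.07, adjusted p = 0.000918). Cd274, which encodes PD-L1, was the only 1 called lower, at 1.04 ± 0.542 CPM in A and 2.56 ± 1.27 CPM in E2 (-1.26, SE 0.70, adjusted p = 0.0447), and it was not called without A replicate 1, A replicate 2, E2 replicate 2 or E2 replicate 3.

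Glycolysis genes were lower in A, with 6 of 20 called lower and 2 higher and a median of -0.28. Ldha, lactate dehydrogenase, measured 160.3, 180.3 and 191 CPM in the A libraries and 319.8, 469.6 and 398 CPM in the E2 libraries (-1.16, SE 0.18, adjusted p = 2.54e-05), and Pgk1 75.3, 103 and 109 CPM in the A libraries and 183, 271 and 238 CPM in the E2 libraries (-1.26, SE 0.24, adjusted p = 4.4e-05). Hexokinase 2, Hk2, changed by -0.75 (SE 0.11, adjusted p = 0.000192) and the regulator Pfkfb3 by -1.44 (SE 0.07, adjusted p = 0.000147). The genes called higher, Eno2 (1.36) and Pfkfb4 (1.52), were low in both populations. Their count was 1 without A replicate 2 or E2 replicate 2 and 0 without A replicate 1, A replicate 3, E2 replicate 1 or E2 replicate 3. Hypoxia response genes were called at the background rate, 2 of 19 in each direction. Ndrg1 (-1.80, SE 0.21, adjusted p = 1.14e-08) and Ddit4 (-1.35, SE 0.17, adjusted p = 2.6e-06) were lower, while Egln3 (1.09, SE 0.17, adjusted p = 0.00309) and Bnip3l (0.83, SE 0.24, adjusted p = 0.00336) were higher.

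Of 25 NRF2 antioxidant targets, 7 were called lower and 2 higher (1 when any 1 library was left out). The members called lower included Slc7a11, which is also in the ATF4 list, and Gclm, a subunit of the enzyme that limits glutathione synthesis (-0.93, SE 0.15, adjusted p = 0.00236). Of 4 creatine genes tested, Gatm, which makes the precursor of creatine, was lower (-0.88, SE 0.12, adjusted p = 0.00167), and Ckb, brain-type creatine kinase, was called higher at 2.25 ± 1.42 CPM in A and 0.203 ± 0.254 CPM in E2 (3.05, SE 1.09, adjusted p = 0.00653, and not called without A replicate 3). Gatm was at 1.03 CPM in the parental population.

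Nuclear-encoded subunits of the respiratory chain had 3 of 76 called higher (3.95%) and 4 lower (5.26%), below the shares of all genes. The count higher was 1 without A replicate 2, A replicate 3 or E2 replicate 3. The count lower was 2 without A replicate 1 or E2 replicate 1 and 1 without A replicate 3. The largest difference was Ndufb9, a complex I subunit on chromosome 15, at 5.68, 6.95 and 6.64 CPM in the A libraries and 22.2, 22.97 and 20.9 CPM in the E2 libraries (-1.77, SE 0.10, adjusted p = 2.86e-07). The mitochondrially encoded protein genes lay higher in A, with 13 of 13 fitted above 0, 8 called by edgeR (4 without A replicate 2) and a median of 0.63. ND1 measured 1129.5, 1296 and 1044 CPM in the A libraries and 629, 776 and 665 CPM in the E2 libraries (0.75, SE 0.13, adjusted p = 0.00217) and ND2 550.0, 604 and 543 CPM in the A libraries and 360.2, 315 and 355 CPM in the E2 libraries (0.72, SE 0.08, adjusted p = 0.00172).

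Ribosomal protein genes showed a smaller shift. Of 74 tested, 16 were called higher and 1 lower, with a median of 0.29. The count higher was 4 without A replicate 2, 8 without A replicate 3 and 5 without E2 replicate 3, so it is not stable. The median stayed between 0.19 and 0.36 when any 1 library was left out. Rps24 measured 74.9, 100.2 and 95.5 CPM in the A libraries and 50.6, 58.1 and 53.4 CPM in the E2 libraries (0.74, SE 0.14, adjusted p = 0.000627), and many copies of these genes in the genome make their counts uncertain. Mitochondrial and ribosomal transcripts were listed as measures that can move with RNA quality and library make-up. Their part in the other results was not tested. Leaving the 6 most abundant genes out gave 2856 called genes in place of 2849, a total that does not test that part. With the share of the most abundant gene as a covariate 2805 genes were called, 2409 of them also in the main fit.

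Histone and cell cycle genes were lower in A in most members, but few were called. Of 52 replication-dependent histones, 48 were fitted below 0, with a median of -0.88, and 2 were called lower by edgeR. None was called higher by edgeR or DESeq2, and 0 were higher at an unadjusted p under 0.05. The count lower was 0 without A replicate 1 or 3 and 1 without E2 replicate 1 or 2. It was 21 with no filter or with the A and E2 libraries alone, and 11 with the share of the most abundant gene as a covariate. Of 52 cell cycle genes, 43 were fitted below 0, with a median of -0.43, 5 were called lower and 3 higher. The count lower was 2 without A replicate 3 and 3 without any 1 of the E2 libraries. It was 22 with no filter or with the A and E2 libraries alone, and 18 with that covariate. Cdc20, an activator of mitotic exit, measured 5.81, 7.27 and 5.60 CPM in the A libraries and 16.9, 12.04 and 13.3 CPM in the E2 libraries (-1.16, SE 0.19, adjusted p = 0.00245). E2f7, a repressor of the cell cycle, changed by -0.95 (SE 0.09, adjusted p = 0.00245), and its relative E2f8 by 0.98 (SE 0.19, adjusted p = 0.000626).

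The p53 target and inhibitor list was divided, with 4 of 20 called higher (2 without A replicate 3 or E2 replicate 3) and 5 lower. Plk2, a kinase induced by p53, measured 14.1, 21.1 and 17.8 CPM in the A libraries and 93.5, 136 and 86.1 CPM in the E2 libraries (-2.57, SE 0.26, adjusted p = 1.3e-08), and Trp53inp1 36.7, 27.3 and 31.8 CPM in the A libraries and 9.42, 16.5 and 12.6 CPM in the E2 libraries (1.31, SE 0.26, adjusted p = 0.00366), in opposite directions. Gadd45a, a stress gene, changed by -1.06 (SE 0.13, adjusted p = 0.000771). Of 21 immediate early genes, 4 were called higher and 3 lower. Fosb, an AP-1 subunit, measured 21.8, 16.8 and 12.1 CPM in the A libraries and 1.72, 2.97 and 2.31 CPM in the E2 libraries (2.81, SE 0.33, adjusted p = 3.63e-07) and Dusp6, a phosphatase of ERK, 122, 148 and 143 CPM in the A libraries and 48.0, 80.7 and 81.6 CPM in the E2 libraries (0.97, SE 0.27, adjusted p = 0.00049). Heat shock genes had 1 of 15 called higher (2 without E2 replicate 2) and 3 lower (1 without A replicate 1, A replicate 3 or E2 replicate 3). Hspd1, a mitochondrial chaperonin, measured 234, 265 and 290.2 CPM in the A libraries and 424, 504 and 429 CPM in the E2 libraries (-0.78, SE 0.12, adjusted p = 0.000163).

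The share of called genes differed between chromosomes. On chromosome 9, 210 of 718 tested genes were called higher in A (29.2%) and 15 lower, with a median log2 fold change of 0.41. On chromosome 14, 102 of 413 were called higher (24.7%) and 7 lower, with a median of 0.37, and on chromosome 16, 101 of 393 (25.7%) and 15, with a median of 0.34. All of the 10 Mb bins with at least 20 tested genes had a median above 0 on these chromosomes, 13 on chromosome 9, 6 on chromosome 14 and 7 on chromosome 16. Over all chromosomes 84 of 213 bins did.

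In the other direction, 121 of 589 tested genes on chromosome 6 were called lower (20.5%) and 30 higher, with a median of -0.24 and all 12 bins below 0. On chromosome 19, 75 of 437 were called lower (17.2%) and 26 higher, with all 6 bins below 0. Chromosome 15 was uneven. There 107 of 486 genes were called lower (22.02%) and 39 higher, but its bins ranged from -0.55 to 0.13, and in the bin from 50 to 60 Mb 44.4% were called lower. Derl1 and Ndufb9 lie in that bin. The lowest bin of all, at -0.69, was on chromosome 13 from 20 to 30 Mb, where a large cluster of histone genes lies. Of its 75 tested genes 5 were called lower (6.67%) and 1 higher (1.33%), both below the shares of all genes.

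The shifts kept their sign in every alternative tried. The median lay between 0.35 and 0.45 on chromosome 9, 0.23 and 0.40 on 14, 0.28 and 0.40 on 16, -0.27 and -0.15 on 6, -0.24 and -0.10 on 15, and -0.22 and -0.10 on 19. The count called higher on chromosome 16 was 67 without E2 replicate 1, that on 15 was 25 without E2 replicate 2, and that on 19 was 17 without A replicate 3 or E2 replicate 2. The counts called lower on chromosomes 9 and 16 were both 9 without A replicate 3. DNA copy number was not analysed here. Members of several lists lie on these chromosomes: Mmp3, Sema7a, Manf, Nt5e and Amotl1 on 9, Plau, Mmp14, Dnajc3, Bnip3l and Rps24 on 14, and Itgb5, Hspa13, Cd47 and Hes1 on 16, all called higher. Of genes called lower, Asns, Mthfd2, Hk2, Gadd45a and Wnt7a lie on 6, Atf4, Srebf2, Ccn4, Ndrg1, Gcat, Derl1 and Ndufb9 on 15, and Fads2 and Fads3 on 19, so members of the ATF4, cholesterol and fatty acid lists are among them. Atf4 and Srebf2 start between 80 and 90 Mb of chromosome 15. That bin had a median of -0.08 and 10.5% of genes called lower, near the share of all genes. The change of the genes listed here was not separated from that of their neighbours. Others were called against the direction of their chromosome as a whole, namely Col12a1 on 9, Igsf11 on 16, Aqp1 and Plxnd1 on 6 and Fbln1 on 15. Fbln1 lies in the same bin as Atf4 and Srebf2.

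**Figure D5:**
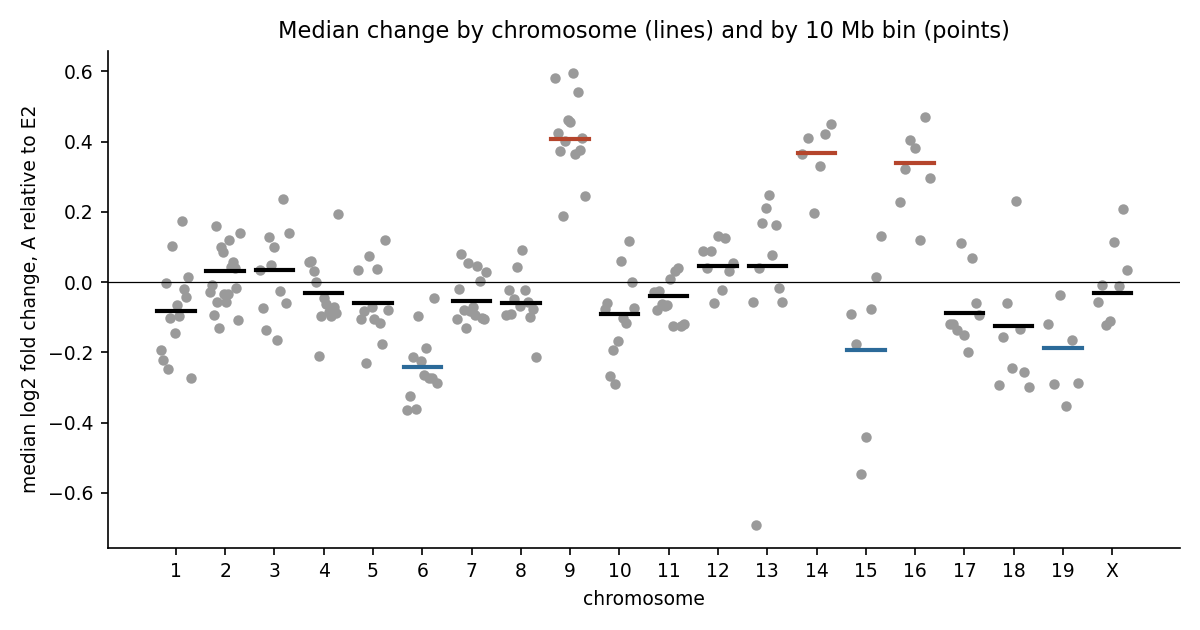
Median log2 fold change (A relative to E2, vertical axis) by chromosome (horizontal lines) and by 10 Mb bin with at least 20 tested genes (points, in order along each chromosome). Red lines mark chromosomes 9, 14 and 16, with medians of 0.34 to 0.41, and blue lines chromosomes 6, 15 and 19, with medians of -0.24 to -0.19.

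The counting's strand setting is not given in the sources used here, so where genes lie across from each other on the 2 strands, their reads may have been mixed. Cdc20, Csn3, Cxcl16, Ddit3, Dll4, Gadd45a, Gcat, Hspa5, Hspd1, Igfbp7, Itga1, Lss, Nlrc5, Notch1, Pfkfb3, Pla2g7, Ppp1r15a, Sema6d, Slit2, Srebf2, Timp2, Tslp, Txnip and Zeb2, of the genes named by rule, overlap another annotated gene, and their values are uncertain to that extent. Acsl4, Atf5, Calr, Cd274, Cdh1, Cebpb, Ckb, Crim1, Cth, Eif2ak3, Eif2ak4, Eno2, Ero1b, Fgf21, Herpud1, Hmgcs1, Insig2, Itgb3, Krt14, Krt8, Mmp10, Mylip, Nupr1, Pdia6, Pfkfb4 and the tRNA synthetase genes fall outside the naming rule and were chosen after their values were seen.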

How the data were processed

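RNA was extracted from 3 cultures of each of 5 populations, and directional libraries were sequenced, per the labels' protocols. The deposited files used here hold raw counts of reads per gene, for which the authors ran HISAT2 and featureCounts on GRCm38 (mm10), per the submitters' processing notes, which also name DESeq2. Their versions, the annotation release and the strand setting are not given in the sources used here. Groups come from the sample labels. The other deposited tables of the series were not used here.

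The 27179 identifiers were matched to symbols with the RefSeq gene table of GRCm38.p6 (25275) and GENCODE's Entrez links (18), and 1886 stayed unnamed. Counts were filtered with filterByExpr over the 5 populations (minimum count 10, minimum total 15), scaled by TMM and fitted over all 15 libraries with edgeR 4.0.16 (R 4.3.3, limma 3.58.1) using robust quasi-likelihood, a prior count of 2 and the contrast A minus E2. The threshold for a call was 0.05 on the Benjamini-Hochberg adjusted p over 12712 genes. The SE of a log2 fold change combines the variances of log2 CPM in the 3 libraries of each population. A floor of 3 counts over a population stands in for 0. The script was tested on simulated data.

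Genes were named by rule: the 12 largest changes in each direction among called genes with at least 5 CPM in the higher population and no overlap between libraries, up to 4 such members per list, and fixed key genes. That gave 149 genes, of which 4 are not reported here. The members, lists and tests were chosen with earlier results of these data known, which had shown the ATF4 and chromosome patterns, so no count over them is independent support. Alternatives were RLE size factors, DESeq2 1.42.0, no filter, at least 1 CPM in 3 libraries, the 6 libraries alone, the replicate number as a block, leaving out the 6 most abundant genes, the share of the most abundant gene as a covariate, a prior count of 0.5, and each library left out in turn. Figures were drawn with matplotlib 3.10.9 from tables made with pandas 2.3.3 in Python 3.11.15.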

Additional observations from a re-analysis of the deposited data

How the results depend on the processing

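The total of 2849 genes called between A and E2 stayed within 1.5 times under every alternative tried: 2842 with RLE size factors, 3160 with DESeq2, 2998 with no filter, 2868 with at least 1 CPM in 3 libraries, 3056 with the 6 libraries alone, 2856 without the 6 most abundant genes, 2805 with the share of the most abundant gene as a covariate, and 2019 to 2368 with any 1 library left out, lowest without A replicate 3. With the replicate block it was 3178. Replicate numbers were not used as pairs in the main fit. Deviations of same-numbered libraries correlated weakly, at 0.137, 0.0688 and 0.0788, against -0.0854 to 0.00798 for other numbers. Each library thus correlated best with its own number, and whether the numbers mark shared handling was not tested. Of the 149 genes named by rule, 136 kept the call in every alternative and none reversed. Folds of genes near 0 counts depended on the prior count: with 0.5 Dmp1 was 7.75 and Serpinb5 -8.98, and with DESeq2 8.19 and -10.51. Counts over lists moved by more than 1.5 times as follows. With no filter, 4 matricellular, 1 metalloprotease, 5 coagulation, 21 histone, 22 cell cycle and 5 YAP genes were called lower, and 2 ATF4, 1 glycolysis, 2 interferon-stimulated and 1 NRF2 genes higher. With the 6 libraries alone, 8 metalloprotease, 2 ATF4, 7 cytokine and 1 NRF2 genes were called higher, and 1 metalloprotease, 21 histone, 22 cell cycle, 0 checkpoint and 3 YAP genes lower. With DESeq2, 2 fatty acid, 5 checkpoint and 7 cytokine genes were called higher and 7 histone and 4 YAP genes lower. RLE size factors moved 1 count, to 2 fatty acid genes higher. With at least 1 CPM in 3 libraries, 5 checkpoint and 0 creatine genes were called higher and 7 respiratory chain and 3 YAP genes lower. With the block, 2 fatty acid, 2 ATF4 and 2 creatine genes were called higher, and 8 respiratory chain, 6 histone, 9 cell cycle and 3 YAP genes lower. Without the 6 most abundant genes, 3 mesenchymal genes were called higher and 2 YAP genes lower. With the covariate, 3 mesenchymal, 1 cholesterol, 2 ATF4 and 2 interferon-stimulated genes were called higher, and 11 histone, 18 cell cycle and 2 YAP genes lower. The causes were not tested. Libraries of 20494390 to 32712813 counts, of which the 6 most abundant genes took 61.9% to 69.9%, limit the precision for genes of a few CPM.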

Other observations

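The parental level places the A and E2 levels of several groups, as values with no explanation. Both comparisons with the parental population use the same 3 parental libraries. For the ATF4 list, E2 lay with the parental libraries and A below: Asns in A was -1.40 (adjusted p = 1.25e-07) against the parental population and in E2 -0.03 (adjusted p = 0.933), and Mthfd2 was -1.67 (adjusted p = 3.04e-09) and 0.26 (adjusted p = 0.228), all as log2 fold changes from edgeR. Of the cholesterol genes, Cyp51 lay nearer the parental level in A, at -0.21 (adjusted p = 0.617) in A and 1.81 (adjusted p = 0.000221) in E2. Fdps did so too, at -0.38 (adjusted p = 0.534) and 1.61 (adjusted p = 0.0177). For Srebf2 and Lss the parental level lay between A and E2. Srebf2 was -0.73 (adjusted p = 0.0374) in A and 0.84 (adjusted p = 0.0283) in E2, and Lss -0.99 (adjusted p = 0.0226) and 1.00 (adjusted p = 0.0288). Insig1 was above the parental level in both, at 2.63 (adjusted p = 0.00119) in A and 2.76 (adjusted p = 0.00196) in E2. For endoplasmic reticulum genes both were below it in Hspa5, -2.16 (adjusted p = 4.33e-11) in A and -1.47 (adjusted p = 6.56e-08) in E2, while Dnajc3 was 0.17 (adjusted p = 0.446) and -1.02 (adjusted p = 3.65e-05). The summed endoplasmic reticulum list was 2412 to 2912 CPM in the A libraries and 1961 to 2289 CPM in the E2 libraries, and 3325 to 3585 CPM in the parental libraries.

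Among single genes, Esrp1, Jag1 and Lamb3 had E2 above the parental level. Esrp1 was 1.71 (adjusted p = 8.39e-09) in E2 and -0.33 (adjusted p = 0.0861) in A, Jag1 1.12 (adjusted p = 4.12e-05) and -0.71 (adjusted p = 0.00196), and Lamb3 1.29 (adjusted p = 0.000216) and -0.79 (adjusted p = 0.00888). Lgr6, Sema7a and Tcf4 had A above it: Lgr6 was 3.95 (adjusted p = 6.25e-10) in A and 0.23 (adjusted p = 0.607) in E2, Sema7a 4.30 (adjusted p = 2.02e-11) and 0.83 (adjusted p = 0.0294), and Tcf4 1.52 (adjusted p = 3.89e-08) and -0.02 (adjusted p = 0.96). The summed replication-dependent histones were 159 to 191 CPM in the A libraries and 278 to 380.5 CPM in the E2 libraries, and 144 to 176 CPM in the parental libraries. The summed mitochondrially encoded protein genes were 6102 to 6998 CPM in the A libraries and 3806 to 4523 CPM in the E2 libraries, and 5257 to 6354 CPM in the parental libraries.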
